A study of Mus musculus with 7 samples.

Results

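Lef1, Tcf7, Tcf7l1 and Tcf7l2 are the 4 genes of the TCF/LEF family, and the accessible chromatin around them was followed through B-cell development in mice with and without Erg. Members were the ATAC-seq peaks that overlapped the body of one of these genes or the 30 kb on either side of it. That rule took 509 of the 647973 peaks in 7 peak lists, and 115 of the 145247 regions made by merging overlapping peaks of all lists. Lef1 held 33 regions, Tcf7 22, Tcf7l1 27 and Tcf7l2 33.

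TCF/LEF proteins bind DNA through a high-mobility-group box and bring either β-catenin, the effector of canonical Wnt signalling, or Groucho/TLE corepressors to their targets. Lef1 is known for its expression in immature B and T lymphocytes, where it supports the survival and division of pro-B cells, and Tcf7 encodes TCF-1, a factor of early T-cell development that lies downstream of Notch. Tcf7l1 and Tcf7l2 encode TCF-3 and TCF-4, which are best known from stem cells and from the intestinal epithelium, and they are unrelated to the E-protein genes Tcf3 and Tcf4.

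The 7 libraries were each the only one of their group. WT cells, from mice with the genotype Ergfl/fl and no Cre, were sorted at 3 successive stages of B-cell development, as pre-proB, proB and preB cells. Erg KO pre-proB cells came from Rag1CreT/+;Ergdelta/delta mice, in which Rag1Cre deletes Erg, an ETS-family factor gene, in lymphoid progenitors and their progeny, T cells included. Rescue cells of the same 3 stages came from Rag1CreT/+;Ergdelta/delta;IgHVH10tar mice, which carry the same deletion and a heavy chain allele that is already rearranged. The alleles of the WT mice were floxed, so no library came from mice with unmodified Erg, and a Cre-only control was not analysed here. With 1 library per group no spread between animals could be estimated, no test was run, and intervals in the text cover counting error only. Stages were those of the sample titles, and all 3 Rescue source names give another stage. Of the whole WT pre-proB, proB and preB lists, 5.88%, 20.6% and 8.02% of peaks overlapped no Rescue peak of that stage by title. By source name these shares were 35.6%, 31% and 12.2%.

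The lists held between 76465 and 105649 peaks. A peak's fold is the fragment pileup at its summit over the background pileup of its library, with a small constant added to both. The background pileup lay between 3.49 and 4.6 fragments. The lowest fold on any list lay between 2.32 and 2.63, and accessibility up to about that height could go uncalled. A pileup also cannot tell more cells with an accessible region from a region that is more accessible in each cell. A promoter peak was found for between 61.4% (WT preB) and 65.5% (WT proB) of all coding genes, with 64.2% in Erg KO. Of 10 B-cell marker genes, 9, 10 and 10 had a promoter peak at the WT stages, 6 in Erg KO, and 7, 10 and 10 at the Rescue stages. Of 10 T-cell marker genes, 5, 4 and 2 had one in WT, 7 in Erg KO, and 7, 4 and 2 in Rescue. Among them, Lck and Gata3 had one in all 7 libraries, Ptcra in the 3 pre-proB libraries, and Cd3g and Cd8a in those and Rescue proB. Cd4 and Bcl11b had one in Erg KO, Rescue pre-proB and WT proB, and Cd3d, Cd3e and Zap70 in no library.

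The 8 stretches of reference sequence printed here are examples of regions that differed between libraries, chosen with their values known. Each is the 300 bp around the summit of the highest peak of its region, on the plus strand of GRCm38, with 5 kinds of motif in capitals on either strand. The motifs searched were CTTTGAA or CTTTGAT for TCF/LEF factors, GGAAGT for ETS factors, TGTGGTT for RUNX factors, CAGCTG or CAGGTG for E proteins and, for EBF1, TCCC and GGGA separated by any 2 bases. None of these motifs contains another. The first 3 sequences lie at Lef1, one in the region that was missing from the Erg-deficient pre-proB libraries and the others in intron 3, where peaks were high in pre-proB cells.
Lef1 8.1 kb upstream, chr3:131102214-131102513: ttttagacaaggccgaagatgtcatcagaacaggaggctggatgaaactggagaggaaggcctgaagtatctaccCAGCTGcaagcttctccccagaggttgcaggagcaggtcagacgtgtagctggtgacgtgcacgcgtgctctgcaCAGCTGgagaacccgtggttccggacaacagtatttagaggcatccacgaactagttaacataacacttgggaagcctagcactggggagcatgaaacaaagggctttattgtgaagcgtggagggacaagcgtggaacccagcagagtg
Lef1 intron 3 at 44.3 kb, chr3:131154590-131154889: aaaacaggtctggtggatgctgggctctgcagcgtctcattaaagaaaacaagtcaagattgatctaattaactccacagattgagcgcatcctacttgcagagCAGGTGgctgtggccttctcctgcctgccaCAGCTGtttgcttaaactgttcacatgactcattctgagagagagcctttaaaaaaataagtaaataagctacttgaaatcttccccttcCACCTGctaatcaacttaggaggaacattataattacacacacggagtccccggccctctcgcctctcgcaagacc
Lef1 intron 3 at 47.2 kb, chr3:131157477-131157776: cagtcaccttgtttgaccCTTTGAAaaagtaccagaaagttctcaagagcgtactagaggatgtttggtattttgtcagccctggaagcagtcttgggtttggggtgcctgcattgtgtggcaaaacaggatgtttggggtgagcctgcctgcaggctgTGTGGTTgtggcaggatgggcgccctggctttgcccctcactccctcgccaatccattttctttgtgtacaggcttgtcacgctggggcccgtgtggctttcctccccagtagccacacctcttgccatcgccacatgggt
The next 3 belong to Tcf7, at its start and in intron 2, and differ between WT pre-proB and the libraries without Erg.
Tcf7 promoter, 0.3 kb upstream, chr11:52283173-52283472: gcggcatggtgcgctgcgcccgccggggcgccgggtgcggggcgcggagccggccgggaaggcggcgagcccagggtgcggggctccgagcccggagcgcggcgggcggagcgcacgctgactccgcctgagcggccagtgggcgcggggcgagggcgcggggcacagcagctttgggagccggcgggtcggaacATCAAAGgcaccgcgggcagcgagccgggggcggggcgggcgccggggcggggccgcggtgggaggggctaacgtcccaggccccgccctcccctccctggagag
Tcf7 intron 2 at 9.7 kb, chr11:52273170-52273469: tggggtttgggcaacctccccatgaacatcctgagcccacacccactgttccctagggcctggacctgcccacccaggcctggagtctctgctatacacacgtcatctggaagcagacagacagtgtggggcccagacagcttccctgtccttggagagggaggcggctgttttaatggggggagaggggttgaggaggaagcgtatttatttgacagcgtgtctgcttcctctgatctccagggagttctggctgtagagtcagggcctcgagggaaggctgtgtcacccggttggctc
Tcf7 intron 2 at 14.4 kb, chr11:52268421-52268720: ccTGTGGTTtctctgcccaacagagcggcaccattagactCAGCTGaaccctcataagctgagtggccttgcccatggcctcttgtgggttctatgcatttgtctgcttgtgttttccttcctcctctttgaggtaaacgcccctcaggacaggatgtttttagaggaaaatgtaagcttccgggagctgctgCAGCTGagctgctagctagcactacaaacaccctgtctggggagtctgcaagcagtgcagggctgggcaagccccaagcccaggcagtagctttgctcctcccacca
The last 2 are intronic regions of Tcf7l1 and Tcf7l2 with the widest differences among peaks that were called in all 7 libraries at those genes.
Tcf7l1 intron 3 at 54.1 kb, chr6:72735051-72735350: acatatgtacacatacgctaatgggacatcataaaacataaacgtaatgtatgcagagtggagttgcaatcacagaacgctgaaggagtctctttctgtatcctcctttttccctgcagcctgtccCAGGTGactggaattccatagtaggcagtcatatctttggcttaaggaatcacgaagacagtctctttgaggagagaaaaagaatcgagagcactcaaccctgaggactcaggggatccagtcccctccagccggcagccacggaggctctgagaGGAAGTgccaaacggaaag
Tcf7l2 intron 3 at 50.9 kb, chr19:55792602-55792901: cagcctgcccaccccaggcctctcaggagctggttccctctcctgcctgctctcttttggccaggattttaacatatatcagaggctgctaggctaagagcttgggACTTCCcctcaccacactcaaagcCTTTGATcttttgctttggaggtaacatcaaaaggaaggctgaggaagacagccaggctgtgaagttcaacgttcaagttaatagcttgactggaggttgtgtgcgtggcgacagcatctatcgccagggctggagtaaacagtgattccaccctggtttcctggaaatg

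Lef1 (ENSMUSG00000027985) is transcribed from the plus strand of chromosome 3, chr3:131110471-131224356, over 113.9 kb. Its peaks numbered 24, 30 and 20 at the successive WT stages, 19 in Erg KO, and 22, 18 and 18 at the Rescue stages. Tcf7 (ENSMUSG00000000782) lies on the minus strand at chr11:52252371-52283014 and spans 30.6 kb. It had 12, 19 and 15 peaks in WT, 12 in Erg KO, and 13, 15 and 13 in Rescue. Tcf7l1 (ENSMUSG00000055799), on the minus strand at chr6:72626378-72789254, had 14, 22 and 9 peaks in WT, 16 in Erg KO, and 14, 13 and 11 in Rescue. Tcf7l2 (ENSMUSG00000024985), on the plus strand at chr19:55741820-55933654, had 22, 23 and 18 peaks in WT, 26 in Erg KO, and 28, 21 and 22 in Rescue. All 4 genes together had their highest count in WT proB, with 94 peaks, against 62 to 77 in the other libraries. Per 10000 peaks of a list this was 10.3 (8.29 to 12.5) in WT proB and between 7.11 and 8.11 in the other 6 libraries, and the 95% Poisson intervals of all 7 libraries overlapped.

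**Figure D1:**
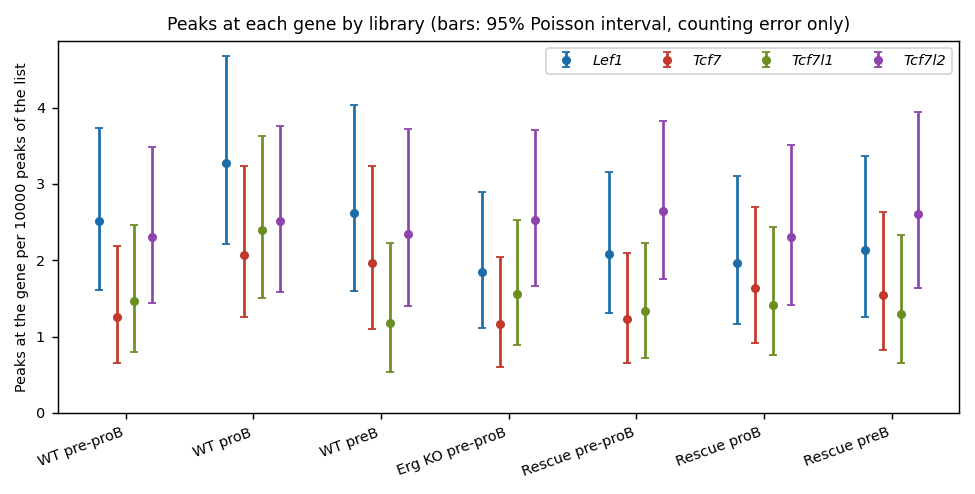
Peaks at each of the 4 genes per 10000 peaks of the list (vertical axis) in each of the 7 libraries (horizontal axis), with 95% Poisson intervals that cover counting error only. Lef1, Tcf7 and Tcf7l1 were highest in WT proB, at 3.27, 2.07 and 2.4, and Tcf7l2 in Rescue pre-proB, at 2.65. The intervals of every gene overlap between libraries.

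Of the 115 regions, 37 (32.2%) had a peak in all 7 libraries, as did 32% of all merged regions. Regions found only in the proB and preB libraries numbered 40, or 34.8% (26.7 to 43.9), beside 23.5% of all regions. Regions found only in the 3 pre-proB libraries numbered 12, or 10.4% (6.07 to 17.4), beside 22.5% of all regions. A peak in WT proB and in no other library was the most frequent pattern after presence in all 7. It held for 23 regions (20%), 8 each at Lef1 and Tcf7l1, 3 at Tcf7 and 4 at Tcf7l2, while 6.48% of all regions were of that kind. Most of these peaks were low, and the highest was at Tcf7l1 40.2 kb, with a fold of 11.1. The wider set of 40 proB and preB regions had a median highest fold of 4.98, beside 4.8 for all merged regions of that kind. For the 37 regions present throughout it was 24.3, beside 26.5.

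**Figure D2:**
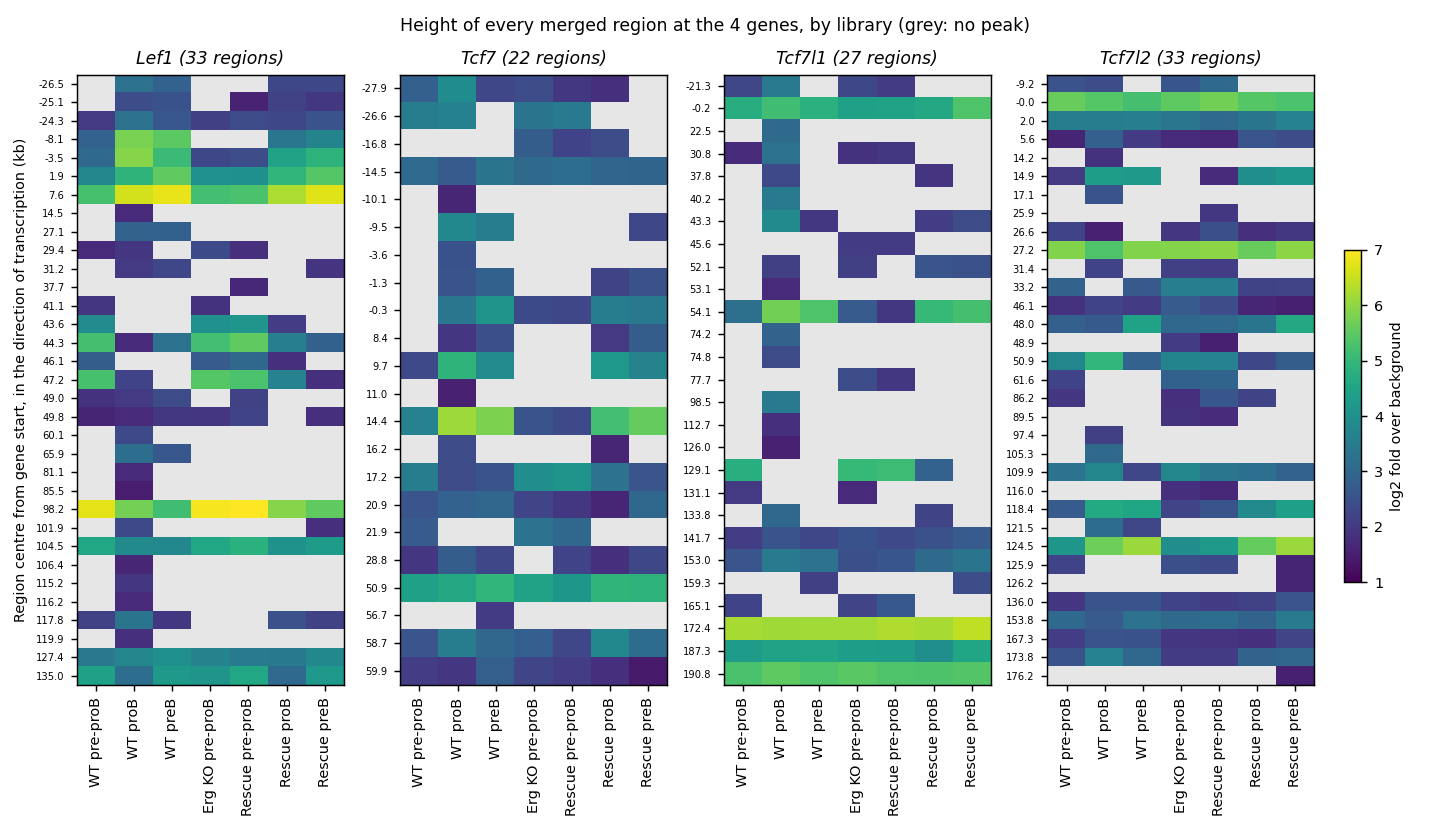
Log2 fold over background of all 115 merged regions (rows, labelled by distance in kb from the gene start) in the 7 libraries (columns), 1 panel per gene, with grey for no peak. The rows filled only in the second column are the 23 regions of WT proB alone, and the rows filled across all 7 columns are the 37 regions present throughout.

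The step from WT pre-proB to WT proB compares accessibility at these genes between 1 library of each stage. Of the 72 WT pre-proB peaks, 13 (18.1%, 10.9 to 28.5) had no WT proB peak, beside 34.1% of the whole list. Of the 94 WT proB peaks, 40 (42.6%, 33 to 52.6) had no WT pre-proB peak, beside 31.9% of the list. These include the peaks of the 23 regions called in WT proB alone (20% of the 115 regions, beside 6.48% of all regions). The share thus depends on 1 library, and whether another WT proB library would show those regions was not tested. Among the 52 regions with a peak in both, 19 (36.5%) were at least 2-fold higher in WT proB after centring on the median ratio of all shared regions, beside 14.8% of all shared regions. At least 2-fold lower were 4 (7.69%), beside 15%. All 4 genes had more regions in the higher group than in the lower one, with 6 and 3 at Lef1, 4 and 1 at Tcf7, 3 and 0 at Tcf7l1, and 6 and 0 at Tcf7l2. From WT proB to WT preB, 37 of 94 peaks (39.4%) had no preB peak, beside 26.7% of the list. The peaks of the same 23 regions count here too. In the other direction, 3 of 62 preB peaks (4.84%) had no proB peak, beside 10.7%. Of 56 shared regions, 3 (5.36%) were at least 2-fold higher in WT preB, beside 4.46%, and 6 (10.7%) were at least 2-fold lower, beside 9.34%.

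**Figure D3:**
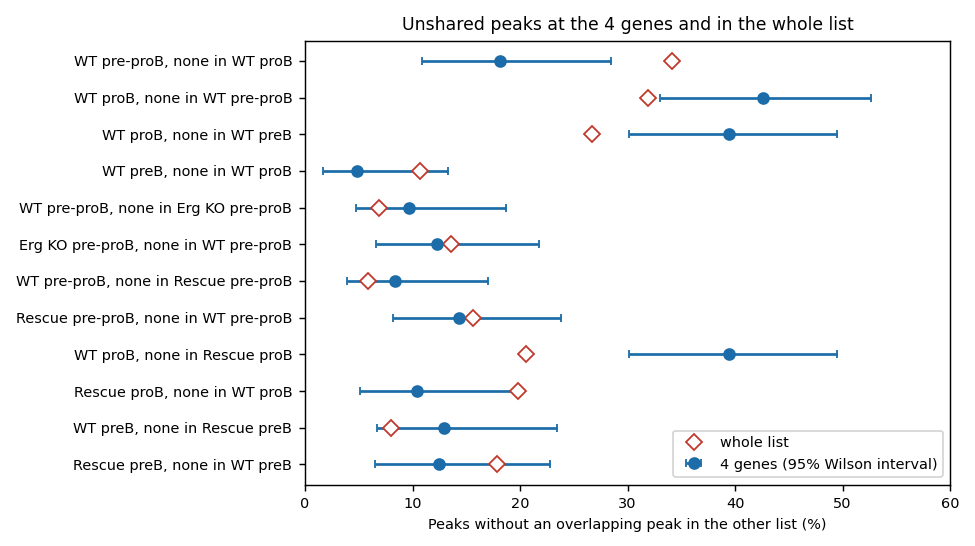
Share of the peaks at the 4 genes without an overlapping peak in another list (circles, with 95% Wilson intervals) and the same share of the whole list (diamonds), for 12 ordered pairs of libraries. The diamond lies outside the interval for WT pre-proB without WT proB (18.1% against 34.1%), for both WT proB shares in WT, and for WT proB without Rescue proB (39.4% against 20.6%). Each of these WT proB shares includes the peaks of the 23 regions called in WT proB alone.

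At Lef1, the regions upstream of the start and those in the middle of intron 3 differed in opposite directions between WT pre-proB and WT proB. The region 8.1 kb upstream (chr3:131101863-131102791) had folds of 7.37, 55.2 and 45.2 at the WT stages. It had no peak in Erg KO or Rescue pre-proB, and reached 10.2 in Rescue proB and 13 in Rescue preB. WT proB and WT preB were thus the only libraries above 13 there. After centring, WT proB was 7.87 times WT pre-proB (counting interval 5.71 to 11.7) and 5.43 times Rescue proB (4.03 to 7.75), and WT preB was 3.73 times Rescue preB (2.83 to 5.09). The ratio of Rescue preB to WT preB lay at the 0.0997 percentile of all shared regions.

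The region 3.5 kb upstream (chr3:131105631-131108674) had folds of 8.34, 60.4 and 34.2 in WT pre-proB, proB and preB. It stood at 4.95 in Erg KO, and at 5.36, 21.8 and 29.3 in Rescue pre-proB, proB and preB. All 7 libraries had a peak, with the 3 pre-proB libraries lowest. WT pre-proB was 1.75 times Erg KO (1.06 to 3.02), and WT proB was 2.79 times Rescue proB (2.23 to 3.56).

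The promoter region of Lef1 (chr3:131108884-131113557) covers both annotated starts of its coding transcripts and part of intron 1. Its folds were 13.6, 29.9 and 46.2 in WT, 16.5 in Erg KO, and 16.1, 31 and 43.1 in Rescue. Height was thus ordered by stage in both WT and Rescue, and the counting intervals of the WT to Rescue ratio included 1 at each stage. The next region, 7.6 kb into the gene in intron 3, gave 38.4, 96.7 and 111 in WT, 37 in Erg KO, and 38.8, 76.4 and 104 in Rescue. It was the highest region of Lef1 in the 4 proB and preB libraries.

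A group of 4 regions between 43.6 and 47.2 kb into Lef1, also in intron 3, was high in the pre-proB libraries. At 44.3 kb (chr3:131154460-131155721) folds were 37.4 in WT pre-proB, 37.2 in Erg KO and 46.3 in Rescue pre-proB. The later libraries stood at 3.32 in WT proB, 9.42 in WT preB, 11.8 in Rescue proB and 7.22 in Rescue preB. All 3 pre-proB values exceeded all 4 later ones, and WT pre-proB was 10.7 times WT proB (6.87 to 19.8). At 47.2 kb (chr3:131157325-131158260) folds were 38, 4.62 and no peak in WT, 43.1 in Erg KO, and 39.7, 12.7 and 3.51 in Rescue. Rescue proB exceeded WT proB at both sites, 3.53 times (2.08 to 6.76) at 44.3 kb and 2.73 times (1.7 to 4.71) at 47.2 kb. Those were the only 2 of 55 shared regions at the 4 genes that were at least 2-fold higher in Rescue proB.

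The 2 smaller regions of this group were absent from WT proB and WT preB. At 43.6 kb folds were 14.9 in WT pre-proB, 16.5 in Erg KO, 17.5 in Rescue pre-proB and 4.23 in Rescue proB. At 46.1 kb they were 6.78, 6.6, 8.04 and 3.56 in the same libraries. RefSeq places an internal start of Lef1 at chr3:131156294, within the 46.1 kb region, and the coding transcripts of GENCODE have none there. A further region at 41.1 kb was weak, with a WT pre-proB fold of 3.88, an Erg KO fold of 3.66 and no peak elsewhere.

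The highest region of Lef1 in the pre-proB libraries lay in intron 11, 98.2 kb from the start (chr3:131207787-131209301). Folds were 108, 53.5 and 35.7 in WT, 120 in Erg KO, and 127, 60.1 and 46.6 in Rescue. All 3 pre-proB libraries were above all later ones. WT pre-proB was 1.92 times WT proB (1.66 to 2.22), and its counting intervals against Erg KO and Rescue pre-proB included 1. Of the regions that were in WT proB and not in WT pre-proB, the 3 highest were 26.5 kb upstream with a fold of 9.6, at 65.9 kb with 9.05 and at 27.1 kb with 7.57. The upstream one was also called in WT preB (7.45), Rescue proB (4.9) and Rescue preB (4.95). Those at 65.9 and 27.1 kb were in WT preB, at 6.14 and 7.23, and in no library without Erg.

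**Figure D4:**
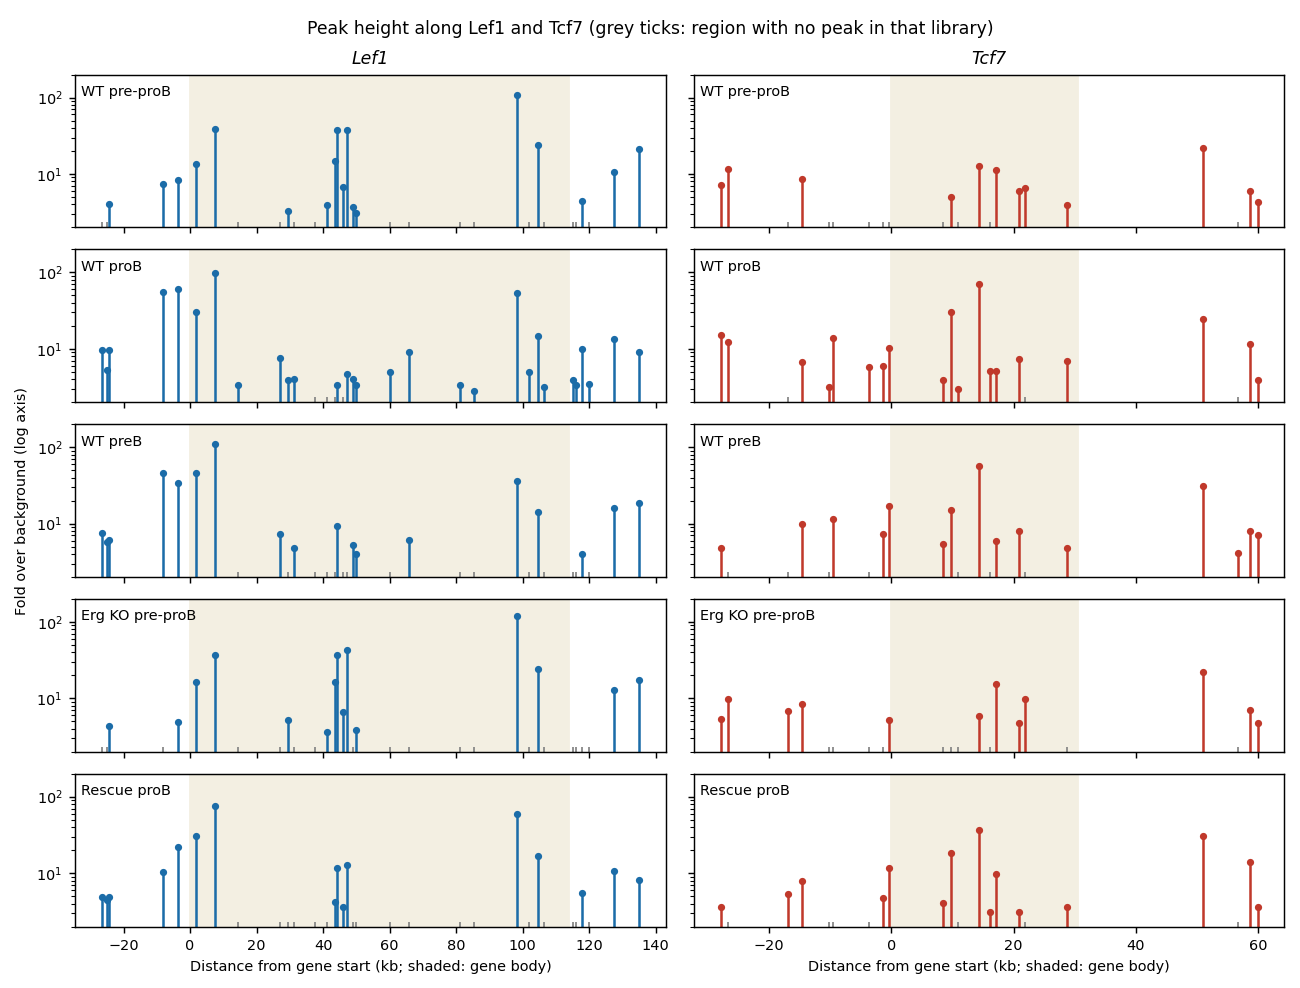
Fold over background (vertical log axis) of each region of Lef1 (left) and Tcf7 (right) by distance from the gene start in kb, for 5 of the libraries, with the gene body shaded and ticks where a library had no peak. At Lef1 the regions 8.1 and 3.5 kb upstream of the start are high in WT proB and WT preB, and the group near 44.3 and 47.2 kb is high in WT pre-proB and Erg KO. At Tcf7 the region at 14.4 kb is lower in Erg KO (5.86) than in WT pre-proB (12.6).

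At Tcf7, the promoter was the only one of the 4 genes without a peak in every list. The region 0.3 kb upstream (chr11:52282679-52283631), which covers the outer of the 2 annotated starts of the gene, had no peak in WT pre-proB. Its folds were 10.3 in WT proB and 17.1 in WT preB, 5.13 in Erg KO, and 4.83, 11.6 and 10.7 in Rescue pre-proB, proB and preB. The difference at the pre-proB stage is thus between low values and a missing call, and the lowest fold called in WT pre-proB anywhere was 2.52. A second promoter region, 1.3 kb upstream, had folds of 5.91 and 7.23 in WT proB and WT preB, 4.68 and 5.57 in Rescue proB and Rescue preB, and no pre-proB peak.

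Intron 2 of Tcf7 held the regions with the widest range. At 14.4 kb (chr11:52268019-52269103), overlapping an exon of the lincRNA gene Gm26551 on the same strand, folds were 12.6, 69.4 and 56.5 in WT. They were 5.86 in Erg KO, and 5, 37.2 and 47.7 in Rescue. Both Erg-deficient pre-proB libraries were below WT pre-proB, and each Rescue library was below its WT counterpart. WT pre-proB was 2.23 times Erg KO (1.46 to 3.61) and 2.81 times Rescue pre-proB (1.8 to 4.67). The Erg KO ratio was at the 0.184 percentile of all regions shared with WT. The region at 9.7 kb (chr11:52272499-52273866) had folds of 5.04, 30.1 and 14.9 in WT, no peak in Erg KO or Rescue pre-proB, and 18.3 and 12.8 in Rescue proB and Rescue preB.

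Other regions of Tcf7 were weaker or followed the opposite order. A region 9.5 kb upstream had folds of 14 in WT proB, 11.6 in WT preB and 4.95 in Rescue preB, and no peak in Rescue proB or any pre-proB library. In intron 2 at 17.2 kb, folds were 11.4, 5.17 and 5.92 in WT, 15.4 in Erg KO, and 17.3, 9.8 and 5.98 in Rescue. In intron 3 at 21.9 kb a peak was found in the 3 pre-proB libraries alone, with folds of 6.59 in WT, 9.71 in Erg KO and 8.04 in Rescue. The region 50.9 kb from the start is the promoter of the neighbouring gene Skp1a, a ubiquitin ligase subunit, and ranged from 18.2 to 30.9 over the 7 libraries. That narrow range contrasts with the range of 5 to 69.4 at 14.4 kb.

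At Tcf7l1 the promoter (chr6:72788120-72790026) had a peak in every library. Its folds were 26.6, 35.8 and 28.5 in WT, 21.6 in Erg KO, and 22, 24.5 and 40.4 in Rescue. Pre-proB was the lowest stage in both WT and Rescue, and the order of proB and preB differed between them. In intron 3 at 54.1 kb (chr6:72734467-72735838) folds were 9.3, 52.8 and 40.8 in WT, 6.6 in Erg KO, and 3.93, 32.5 and 37.5 in Rescue. The 3 pre-proB libraries were the lowest 3. WT proB was 5.96 times WT pre-proB (4.44 to 8.44), and WT pre-proB was 2.64 times Rescue pre-proB (1.59 to 4.76) and 1.47 times Erg KO (0.933 to 2.36), an interval that includes 1.

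The same intron held a region of the opposite kind at 129.1 kb (chr6:72659743-72660483). It had folds of 27.3 in WT pre-proB, 32.2 in Erg KO, 34.7 in Rescue pre-proB and 7.35 in Rescue proB, and no peak in WT proB, WT preB or Rescue preB. With the weaker regions at 165.1 kb (4.65) and 131.1 kb (4.07) it made up the WT pre-proB regions of Tcf7l1 that WT proB lacked. The highest regions in WT proB that WT pre-proB lacked were at 43.3 kb (14.6), 40.2 kb (11.1) and 98.5 kb (10.9). Those at 40.2 and 98.5 kb were called in no other library, and the one at 43.3 kb had folds of 3.95 in WT preB, 4.23 in Rescue proB and 5.16 in Rescue preB. The highest region in the Tcf7l1 window was the promoter of a neighbour, Tgoln1, a trans-Golgi protein gene, with folds from 70.9 to 85.8. The promoter shared by Elmod3 and Retsat had folds from 39 to 45.4.

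At Tcf7l2 the promoter (chr19:55740721-55742156) was called in every library, with folds of 48.3, 42.6 and 37.7 in WT, 45.8 in Erg KO, and 52.4, 42.5 and 39.2 in Rescue. The counting intervals of every compared ratio at this promoter included 1. A region 2 kb into the gene that also lies within 1000 bp of annotated starts had folds between 8.4 and 12.6. The promoter of the short transcript that begins at 55895510, 153.8 kb into the gene, had folds between 6.65 and 10.9 in all libraries. Tcf7l2 had the largest number of regions present in all 7 libraries, 14 of 33, against 9 of 33 at Lef1 and 7 each at Tcf7 and Tcf7l1. The highest of those in WT pre-proB was at 27.2 kb, with folds of 58.4, 40.4 and 58.3 in WT, 59.2 in Erg KO, and 62, 48.8 and 61.9 in Rescue.

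Regions within Tcf7l2 nevertheless differed by stage. At 124.5 kb in intron 4, where the highest fold of the gene was found, folds were 18, 51.5 and 68.6 in WT, 15.6 in Erg KO, and 18.9, 47.7 and 68.1 in Rescue. WT and Rescue had nearly the same heights there, and the counting intervals of their ratios included 1 at all 3 stages. At 48 kb in intron 3, the preB libraries stood apart, with folds of 22.1 in WT and 24.6 in Rescue against 6.46 to 10 in the other 5. At 50.9 kb (chr19:55791742-55793495), WT proB stood alone, with folds of 13.4, 31.4 and 7.45 in WT, 13 in Erg KO, and 12.7, 4.9 and 6.81 in Rescue. There, WT proB was 6.45 times Rescue proB (4.26 to 11.1). The highest WT proB regions that WT pre-proB lacked were at 121.5 kb (8.68), 105.3 kb (8.49) and 17.1 kb (5.91), and the reverse ones were at 33.2 kb (7.56), 61.6 kb and 125.9 kb (4.65 each).

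**Figure D5:**
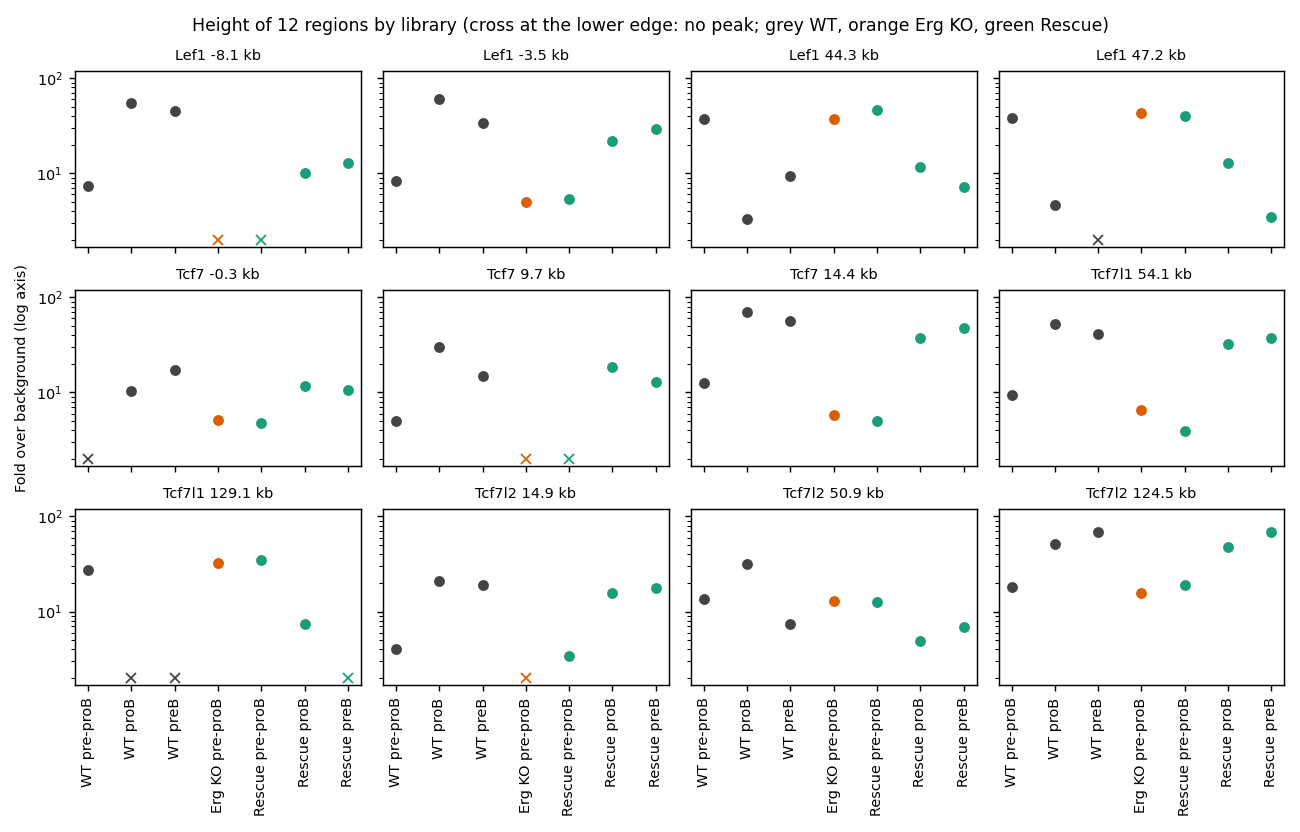
Fold over background (vertical log axis) of 12 regions in the 7 libraries (horizontal axis), with a cross at the lower edge for no peak, WT in grey, Erg KO in orange and Rescue in green. Lef1 8.1 kb upstream and Tcf7 at 9.7 kb have a peak in WT pre-proB and none in Erg KO or Rescue pre-proB, whereas Lef1 at 44.3 and 47.2 kb and Tcf7l1 at 129.1 kb are similar in the 3 pre-proB libraries.

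Comparing Erg KO with WT pre-proB asks what accessibility differs without Erg at the pre-proB stage, where B-cell development in these mice is blocked. Of the 72 WT pre-proB peaks at the 4 genes, 7 (9.72%, 4.79 to 18.7) had no Erg KO peak, beside 6.88% of the list. In the other direction, 9 of 73 Erg KO peaks (12.3%, 6.62 to 21.8) were without one in WT, beside 13.6%. Both counting intervals include the share of the whole list. With peaks of a −log10 q of at least 10 alone, the shares were 13% beside 6.09% and 18.4% beside 10.4%, so that the second turned from below to above that of the whole list. By region, WT had 6 that Erg KO lacked, with folds in WT of 7.37 at Lef1 8.1 kb upstream, 4.46 at Lef1 117.8 kb, 3.68 at Lef1 49 kb, 5.04 and 3.88 at Tcf7 9.7 and 28.8 kb, and 4.07 at Tcf7l2 14.9 kb. All 6 had a peak in WT proB and WT preB. The region at Tcf7l2 14.9 kb, in intron 3, had folds of 20.7 and 18.8 there, 3.4 in Rescue pre-proB, and 15.8 and 17.9 in Rescue proB and preB.

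The 9 regions that Erg KO had and WT pre-proB lacked were low, with folds from 3.48 to 6.78. The 2 at Tcf7 were the promoter, at 5.13, and a region 16.8 kb upstream, at 6.78, which was also called in Rescue pre-proB (4.65) and Rescue proB (5.35) and in no WT library. At Tcf7l1 they were at 77.7 kb (5.31), 52.1 kb (4.4) and 45.6 kb (4.21). At Tcf7l2 they were at 31.4 kb (4.4), 48.9 kb (4.21), 89.5 kb (3.66) and 116 kb (3.48). Lef1 had none. Of the 57 shared regions, 1 was at least 2-fold lower in Erg KO (1.75%, beside 0.332% of all shared regions), the one at Tcf7 14.4 kb, and 0 were higher, which allows a share of up to 6.31% (Wilson), beside 0.185%. The numbers of B-cell marker promoters with a peak differed in the same comparison, 9 in WT and 6 in Erg KO, as did T-cell marker promoters, 5 and 7, and the part of these differences in the results at the 4 genes was not tested.

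Rescue pre-proB against WT pre-proB uses the same WT library as the comparison above. Of 72 WT peaks, 6 (8.33%) had no Rescue peak, beside 5.88%, and of 77 Rescue peaks, 11 (14.3%) had no WT peak, beside 15.6%. At a −log10 q of at least 10 these became 17.4% beside 4.71% and 24.5% beside 13.5%. Of 58 shared regions, 3 (5.17%) were at least 2-fold lower in Rescue, beside 0.471%, and 0 were higher, which allows up to 6.21%, beside 0.196%. The 3 were Tcf7 at 14.4 kb, Tcf7l1 at 54.1 kb and Tcf7 27.9 kb upstream, where WT pre-proB was 2.03 times Rescue pre-proB (1.18 to 3.74). Lef1 8.1 kb upstream and Tcf7 9.7 kb were without a peak in Rescue pre-proB as in Erg KO.

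Among the comparisons of WT with Erg-deficient libraries, the share at the 4 genes was furthest from that of the whole list at the proB stage. Of 94 WT proB peaks, 37 (39.4%, 30.1 to 49.5) had no Rescue proB peak, beside 20.6% of the list. Lef1 contributed 15 of 30, Tcf7l1 10 of 22, Tcf7l2 7 of 23 and Tcf7 5 of 19. In the other direction, 7 of 67 Rescue proB peaks (10.4%) had no WT proB peak, beside 19.8%. Most of the WT proB regions without a Rescue proB peak were low, with a median fold of 4.62, and the highest was Tcf7 9.5 kb upstream, at 14. Of 55 shared regions, 6 (10.9%) were at least 2-fold lower in Rescue proB, beside 6.67%, and 2 (3.64%) were higher, beside 5.19%. At the preB stage, 8 of 62 WT peaks (12.9%) had no Rescue peak, beside 8.02%, and 8 of 64 Rescue peaks (12.5%) had no WT peak, beside 17.9%. Of 53 shared regions, 3 (5.66%) were at least 2-fold lower in Rescue preB, beside 1.26%, and 0 were higher, which allows up to 6.76%, beside 2.2%. WT proB is also the library with the most regions of its own, and whether another WT proB library would show them was not tested.

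The letters of the motifs were read in the 300 bp around each summit. A TCF/LEF motif was in 15 of 115 regions (13%, 8.07 to 20.4), beside 10.7% of all regions. An ETS motif was in 43 (37.4%), beside 33.8%, a RUNX motif in 17 (14.8%), beside 13.5%, and an E-protein motif in 46 (40%), beside 44.1%. An EBF1 motif was in 2 (1.74%), beside 1.9%, both in Tcf7l1 intron 3 at 74.8 and 98.5 kb, and both regions had a peak in WT proB alone. For each of the 5 motifs the share of all regions lay inside the counting interval of the share at the 4 genes. Among all regions that were gained or at least 2-fold higher in WT proB the EBF1 motif was in 5.44%, and at the 4 genes it was in 2 of 59 such regions (3.39%). In the sequences shown, Lef1 8.1 kb upstream held CAGCTG at positions 76 and 151, Tcf7 14.4 kb held it at 41 and 194 with TGTGGTT at 3, and the Tcf7 promoter held ATCAAAG, the reverse complement of CTTTGAT, at 196, counted from 1 at the left end. Lef1 47.2 kb held CTTTGAA at 19 and TGTGGTT at 160, Tcf7l2 50.9 kb held CTTTGAT at 131, and Tcf7 9.7 kb held none of the letters searched.

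The Wnt pathway, through which TCF/LEF proteins receive β-catenin, was read from the promoters of 48 other genes. A promoter peak was found for 46, 48 and 43 of them in WT pre-proB, proB and preB, for 46 in Erg KO, and for 47, 46 and 45 in Rescue. Of all coding genes, between 61.4% and 65.5% had one, depending on the library. All 10 genes of the cytoplasmic relay and destruction complex, all 8 corepressor genes, and all 3 receptor feedback genes had one in every library. In total 43 of 48 (89.6%) had a promoter peak in all 7 libraries, beside 58.7% of coding genes. The other 5 varied. The Frizzled receptor gene Fzd8 had a peak in WT proB (7.57) and Rescue proB (7.35) alone. Fzd10 had folds of 10.5 and 6.46 in WT pre-proB and proB, 13 in Erg KO, and 17, 7.8 and 5.36 in Rescue, and no peak in WT preB, which also had none at Fzd1. Dkk1, a secreted Wnt inhibitor and target, had folds of 5.43 and 3.51 in WT pre-proB and proB, 5.5 in Erg KO and 4.47 in Rescue pre-proB. Pygo1, a nuclear partner of β-catenin, had 3.88 in WT proB and 3.93 in Rescue pre-proB.

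Among 42 regulators of blood development, the pair whose peaks per 10000 tracked each member most closely over the 7 libraries was described by Pearson's r. For Tcf7 these were Pax5 (r = 0.96, Spearman's rho = 0.96) and Erg (0.95 and 0.96), with Foxo1 (0.95 and 0.93) and Gfi1 (0.92 and 0.96) close behind. For Tcf7l2 the pair was Bcl11b (0.80 and 0.79) and Gata3 (0.72 and 0.64). Bcl11b had at most 0.28 peaks per 10000 and 0.0 in WT preB and Rescue proB, so its values rest on very few peaks. For Lef1 the pair was Spib (0.72 and 0.39) and Hhex (0.68 and 0.68), and for Tcf7l1 Spib (0.54 and 0.14) and Hhex (0.52 and 0.36). The choice for Lef1 depends on the measure, since its rho was highest with Erg (0.67 and 0.82) and Gfi1 (0.62 and 0.82). Lef1 and Tcf7 had r = 0.74 and rho = 0.75 with each other. The points are 7 libraries, some of the same stage and with lists of different length, so these values describe the libraries only. Those of Tcf7l1 differ most between r and rho.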

How the data were processed

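ATAC-seq was performed on sorted mouse pre-proB, proB and preB cells, 1 library for each of 7 groups. Per the study's methods, Bowtie2 aligned the reads to mm10 and MACS2 called 1 peak list per library. Submitters' processing notes also name Picard and CASAVA 1.8.2. The sources differ on fragmentation (sonication in the methods, Tn5 transposase in the labels), which bears on peak width and number. The methods state a minimum sequencing depth for the libraries. Read totals of single libraries and the MACS2 options for these lists were not used here.

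In each list the authors deposited a score, the fold, the −log10 p-value and the −log10 q-value. The fold was read as the ratio of summit pileup to background pileup, with 1 added to both. The score held that −log10 q times 10, as a whole number. Folds were whole multiples of 1 step in each library for 100% of values, which gave its background pileup and the summit pileup of each peak. Coordinates were GRCm38, and 0 columns of other samples were present.

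Genes were from GENCODE M21, with 30 kb flanks. A promoter was 1000 bp either side of a coding start. Peaks overlapping by 1 bp were shared. Merged regions took the highest fold per library. Height ratios were centred on the median of all shared regions and carry intervals on the 2 pileups. Shares carry Wilson and counts Poisson 95% intervals. Since each group had 1 library, no test was run. RefSeq starts and sequence came from GRCm38.p6. Scripts were checked on simulated data and used Python 3.11.15, numpy 2.4.6, pandas 2.3.3 and scipy 1.17.1.

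Groups followed titles. The members, lists and motifs were chosen with earlier results of these data known. Regions were named by rule: promoters, regions in 1 of WT and Erg KO pre-proB, the 3 highest each way between WT pre-proB and WT proB, and the highest present in all 7. Regions with a difference of at least 2-fold, and those at 3.5, 7.6, 44.3 and 47.2 kb of Lef1 or 9.7 to 17.2 kb of Tcf7, were added after their values were seen. Marker lists for other cell types were counted too, beside 61.4% to 65.5% of all coding genes. Promoter peaks ranged over the libraries from 4 to 7 of 10 genes for NK and innate lymphoid cells and 8 to 10 for plasmacytoid dendritic cells. For myeloid cells it was 6 or 7 in the pre-proB libraries and 4 to 6 in the later ones. Over all libraries it ranged from 9 to 10 for stem and progenitor cells, and it was 5 for erythroid cells in all 7.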

Additional observations from a re-analysis of the deposited data

Results flagged for a closer look

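Some stage changes at these genes had opposite signs in WT and Rescue. They are given as values, and the difference was not tested, since each stage and genotype had 1 library. For peaks per 10000, the Poisson intervals of the stages compared overlapped in WT and in Rescue. The direction of these count changes is thus not established. Lef1 had 2.51 (1.61 to 3.73), 3.27 (2.21 to 4.67) and 2.62 (1.6 to 4.04) in WT pre-proB, proB and preB. In Rescue it had 2.08 (1.31 to 3.15), 1.97 (1.17 to 3.11) and 2.13 (1.26 to 3.37). From pre-proB to proB, Lef1 peaks per 10000 changed by 0.76 in WT and by -0.11 in Rescue, a difference of 0.88. Those of Tcf7l2 changed by 0.21 and -0.35, a difference of 0.56. From proB to preB, Lef1 changed by -0.66 in WT and 0.16 in Rescue, a difference of -0.82, and Tcf7l2 by -0.16 and 0.31, a difference of -0.46. The 4 genes together changed by -2.15 and 0.25, a difference of -2.40. The peak 50.9 kb into Tcf7l2 changed in height from pre-proB to proB by 1.30 on the centred log2 scale in WT and by -1.07 in Rescue, a difference of 2.37. For Lef1 and for the 4 genes together the larger change was in WT, and for Tcf7l2 peaks it was in Rescue.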

How the results depend on the processing

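No paired analysis was possible because the labels carry no replicate numbers and each group had 1 library. For the same reason no replicate could be left out, and nothing here separates a difference between conditions from one between libraries. Peak calls also depend on depth, and a region without a call may lie just under the lowest fold called. Of the recomputed summary values, 77 stayed close to the reported ones and 24 moved, and of those for single genes or regions 111 stayed close and 70 moved.

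Several shares changed side against the whole list. Erg KO peaks without a WT peak (12.3%, beside 13.6%) became 18.4% beside 10.4% at a −log10 q of at least 10, 13.7% beside 8.34% in lists of equal length, 21.9% beside 17.5% with a 50% reciprocal overlap, and 15.1% within gene bodies. Rescue pre-proB without WT (14.3%, beside 15.6%) became 24.5% beside 13.5%, 8.89% beside 8.63%, 26% beside 19.4%, and 16.4% in the same order. WT pre-proB without Rescue pre-proB (8.33%, beside 5.88%) became 17.4% beside 4.71%, 19.6% beside 7.81%, and 20.8% beside 11%, but 23.6% beside 35.6% with stages from the source names and 5.6% with 100 kb flanks. WT preB without Rescue preB (12.9%, beside 8.02%) became 14.5% beside 14.7% with reciprocal overlap. WT proB without Rescue proB, at 34.4% to 47.8%, stayed above the list throughout, but source-name stages narrowed the gap to 43.6% beside 31%.

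With reciprocal overlap, WT pre-proB without WT proB became 43.1% beside 47.1%, the reverse 56.4% beside 44.8%, WT preB without WT proB 21% beside 21.1%, WT pre-proB without Erg KO 20.8% beside 11.5%, and Rescue proB without WT proB 25.4% beside 28.4%. In lists of equal length, WT proB without WT preB became 29.3% beside 18.6%, and Rescue preB without WT preB 5.36% beside 12.8%. Source-name stages gave 24.7% beside 40.2% for Rescue proB without WT proB. Regions past 2-fold in lists of equal length were 1 of 38 for Rescue pre-proB, which was lower, and 5 of 44 for Rescue proB, 1 higher and 4 lower.

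At a fold of 1.5, 19 regions passed for WT preB against WT proB, 5 higher and 14 lower of 56, beside 12.7% and 18.7% of all shared regions. Erg KO had 5, with 3 higher and 2 lower of 57, beside 3.2% and 2.68%, so the single lower region at 2-fold gives no direction for the rest. Rescue pre-proB had 7 of 58, all lower, beside 3.32%, Rescue proB 22 of 55, with 4 higher and 18 lower, beside 12.5% and 15.4%, and Rescue preB 7 of 53, all lower, beside 5.91%. Flanks of 100 kb gave 877 peaks in place of 509. In 200 bp windows a TCF/LEF motif was in 7.83% of regions, beside 7.03% of all regions, against 13% beside 10.7% in the main window. The share of all regions thus fell with the shorter window too. The cause of the shifts in shares and heights was not tested.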
